A study of Mus musculus with 4 samples.

Results

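The suppressors of cytokine signalling (SOCS) are a family of 8 mouse genes, Cish and Socs1 to Socs7. All 8 were taken by symbol from the gene tables of 4 bulk RNA sequencing libraries, as 8 of the 50600 genes in each table and 8 of the 21764 protein-coding genes among them. The cells were primary T cells of C57BL/6NJ mice, an inbred laboratory strain, in 1 group with 4 numbered biological replicates. The file headers call the cells activated, in bulk, at 72 h, with sample names that begin with mmTh0, and the linked culture protocol is one for CD4+ T cells. No genetic change, added cytokine or second condition was named, and neither age nor sex was given. All replicates carry the same donor identifier and nothing says that they came from separate animals, so the spread between them may be technical.

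SOCS proteins are brakes on cytokine signals. A cytokine receptor activates Janus kinases (JAKs), which phosphorylate STAT transcription factors, and STATs in turn switch on Cish, Socs1, Socs2 and Socs3, whose products bind the receptor or its kinase and shut the signal down. Each member has an SH2 domain that binds phosphotyrosine and a C-terminal SOCS box that recruits elongins B and C and cullin 5 to form a ubiquitin ligase. In T cells, Cish is a classical target of interleukin 2 and STAT5, Socs1 restrains interferon-gamma and interleukin 2 family signals, and Socs3 acts on receptors that use gp130. Socs4 to Socs7 are tied less closely to cytokines and have been linked to receptor tyrosine kinases such as the epidermal growth factor and insulin receptors.

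The control regions of Cish, Socs1 and Socs3 are shown first, as the members with both a promoter sequence and a motif match. Sequences are from RefSeq on GRCm38.p6, which has the coordinates of mm10, the build of the count tables. The promoter table held 4 of the 8 members, Cish, Socs1, Socs3 and Socs4. Positions count from the RefSeq start, with the first transcribed base as 1 and the base before it as -1. The STAT motif searched was TTCNNNGAA, which reads the same on both strands, and the interferon regulatory factor (IRF) motif was GAAANNGAAA on both strands, with overlapping matches counted.

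The 3 stretches below carry the matches, which are in capitals, each written 5′ to 3′ on the gene's own strand. The first is chr9:107296655-107296684 (plus strand), positions -4 to 26 at the start of Cish. The second is chr16:10785537-10785656 (minus strand), positions -120 to -1 of Socs1. The last is chr11:117969447-117969546 (minus strand), positions -180 to -81 of Socs3.
Cish STAT motifs: agttTTCCTGGAAagTTCTTGGAAatctgt
Socs1 IRF motifs: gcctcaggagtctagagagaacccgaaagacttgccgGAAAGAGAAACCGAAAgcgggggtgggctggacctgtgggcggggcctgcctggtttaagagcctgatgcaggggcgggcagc
Socs3 STAT motif: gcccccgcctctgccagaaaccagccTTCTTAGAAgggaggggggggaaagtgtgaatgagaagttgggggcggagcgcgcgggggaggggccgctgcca

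The Cish stretch held 2 STAT motifs, starting at positions 1 and 12, inside annotated 5′ UTR sequence. Among 32851 promoter windows of 300 bases (250 before the start and 50 after), 8.30% held at least 1 STAT motif and 0.457% held at least 2. The Socs3 window held 1 STAT motif, at position -154. The counted models of Cish and Socs3 begin upstream of these RefSeq starts, at 107296026 and 117970047. Their motifs therefore lie inside the counted spans. The Socs1 window held 2 overlapping IRF motifs, starting at positions -83 and -77, and no STAT motif. At least 1 IRF motif was in 3.44% of all windows, and at least 2 were in 0.225%. The Socs4 window held neither motif. These are letter matches only, and no binding was measured.

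Socs1 is also a well-studied target of the microRNA miR-155, whose host transcript Mir155hg was measured in these libraries. The mature miR-155-5p is shown with its seed, bases 2 to 8, in capitals. The Socs1 stretch below it is chr16:10784195-10784224 (minus strand) in the 3′ UTR, with the complement of the seed and the A after it in capitals, starting at base 20 after the stop codon.
mmu-miR-155-5p: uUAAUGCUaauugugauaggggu
Socs1 target site: cgctgtgccgcAGCATTAAgtgggggcgcc

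The 3′ UTRs of Socs1 and Socs6 each held 1 match to the 7-base seed, and those of the other 6 members held 0. Of 20734 annotated 3′ UTRs, 7.71% held such a match. Among UTRs of like length, the share was 11.9% for the 1993 bases of Socs1 and 24.0% for the 4019 bases of Socs6.

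Library totals ran from 49613182 to 94222415 counted fragments. Levels are in TPM, the length-scaled unit of transcript abundance: a count divided by the gene's exon length and scaled to a fixed sum in each library. All 7 T cell markers were detected, meaning that no library was under a TPM of 1, with a summed TPM of 5524 to 5826. Cd4 lay between 977 and 1129 TPM and Cd8a between 0.0792 and 0.311, while Cd8b1 lay between 12.7 and 18.1. Summed TPM was 3.45 to 5.16 over 6 B cell markers (1 detected), 2.66 to 5.19 over 4 NK cell markers (1 detected) and 12.8 to 15.4 over 6 macrophage markers (2 detected, Cd68 the highest). It was at most 0.650 over 4 dendritic cell, 0.0210 over 4 neutrophil and 0.226 over 3 erythroid markers, none of them detected, and S100a8, S100a9, Siglech and Hbb-bs had 0 counts in all 4 libraries. In bulk RNA, fewer cells of a type and less RNA per cell cannot be told apart.

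All 8 SOCS genes were detected in these cells, against 49.4% of all protein-coding genes. Cish, which limits interleukin 2 receptor signals, and Socs1, which blocks JAKs directly, were the highest, and Socs3, the inhibitor of gp130 receptors, was the lowest. Cish and Socs1 together made up most of the family's transcripts, with mean shares of 38.7% and 28.8% of the family's summed TPM. That sum was 364, 359, 386 and 368 TPM in replicates 1 to 4, or 369 ± 12.0 (SD, n = 4, as for every mean here). The median of the 8 mean TPMs was 29.0, beside 34.8 over the 10754 detected protein-coding genes.

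Cish (chr9:107296026-107302784, plus strand) stood at 141, 132, 152 and 147 TPM in replicates 1 to 4, a mean of 143 ± 8.61. Its highest library was 1.15 times its lowest, and it ranked 1444 among the 10754 detected protein-coding genes. Socs1 (chr16:10783808-10785536, minus strand) stood at 98.8, 115, 101 and 110 TPM, a mean of 106 ± 7.45 and rank 2066. Every Cish value lay above every Socs1 value, and their mean ratio was 1.35 ± 0.151. With the principal transcript's length described below, the ratio was 3.05 ± 0.340, and in CPM, which ignores length, Socs1 ranked 4.

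Socs2, the member that restrains growth hormone signals and is closest in structure to Cish, was far lower. Its TPM was 8.47, 9.96, 8.66 and 7.50, a mean of 8.65 ± 1.01. Within libraries Cish exceeded Socs2 by 3.90 ± 0.22 on the log2(TPM + 1) scale. The TPM ratio was 16.8 ± 2.65, and the lowest ratio, 13.2, came from replicate 2, where Cish was lowest and Socs2 highest.

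Socs3 (chr11:117966079-117970047, minus strand), the structural partner of Socs1 and the other member with a kinase inhibitory region, stood at 4.70, 3.77, 4.84 and 5.33 TPM, a mean of 4.66 ± 0.652. Its counts were 228, 176, 195 and 428, the fewest of the family, and counting alone gives a coefficient of variation of 6.54% on average. Socs1 exceeded Socs3 by 4.13, 4.60, 4.13 and 4.14 on the log2(TPM + 1) scale in replicates 1 to 4. The 3 other libraries lay within 0.01 of each other and replicate 2 stood apart, with the highest Socs1 and the lowest Socs3. The mean difference was 4.25 ± 0.23, a TPM ratio of 23.3 ± 4.77.

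Socs7 and Socs4 came after Cish and Socs1. Socs7, which binds signalling adaptors and insulin receptor substrates, stood at 43.6, 38.0, 47.2 and 37.7 TPM, a mean of 41.6 ± 4.59. Socs4, linked to epidermal growth factor receptor turnover, stood at 41.0, 35.2, 45.5 and 37.0 TPM, a mean of 39.7 ± 4.60. Their ranges overlapped and both were highest in replicate 3, although Socs7 was above Socs4 in each of the 4 libraries, by 0.07 ± 0.04 on the log2(TPM + 1) scale.

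Socs5, the structural partner of Socs4, reported to restrain interleukin 4 and epidermal growth factor receptor signals, stood at 18.8, 18.5, 19.4 and 16.6 TPM, a mean of 18.3 ± 1.19. It lay below Socs4 in every library, with a difference of -1.07 ± 0.13 on the log2(TPM + 1) scale. Socs6, which acts on the receptor kinase KIT and on T cell kinase signals, stood at 7.24, 7.23, 7.80 and 6.57 TPM, a mean of 7.21 ± 0.50. It lay below its partner Socs7 by -2.37 ± 0.10 on the same scale, and below Socs2 in all 4 libraries, although the ranges of Socs2 and Socs6 overlapped.

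The order was therefore Cish, Socs1, Socs7, Socs4, Socs5, Socs2, Socs6 and Socs3. Of its 7 neighbouring pairs, Socs7 with Socs4 and Socs2 with Socs6 had overlapping ranges, and the other 5 did not. Within each structural pair 1 member exceeded the other in all 4 libraries. With 4 libraries a two-sided exact sign-flip test cannot pass a threshold of 0.05, so these differences carry no call.

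**Figure D1:**
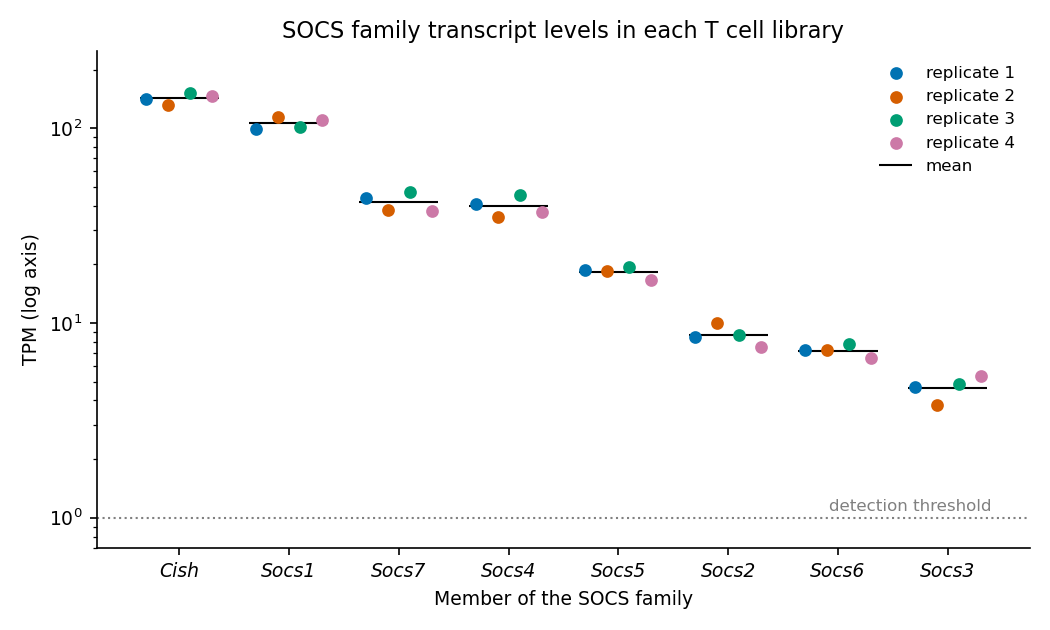
TPM of each SOCS gene on a log axis, with 1 point per library coloured by replicate and a line at the mean of 4. All points lie above the detection threshold of 1, Cish and Socs1 stand above the rest, and the points of Socs7 and Socs4 and those of Socs2 and Socs6 overlap.

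The order of Socs2 depended on the gene length that TPM divides by. The tables give the summed length of all annotated exons, which for Socs2 (chr10:95385362-95417180, minus strand) was 9531 bases, 4.29 times its principal transcript of 2222 bases. For Cish the ratio was 2.25 (6419 against 2850 bases) and for Socs6 1.36. With the principal transcript's length, capped at the counted length, Socs2 rose from 8.65 to 25.8 ± 3.00 TPM and passed Socs5 at 12.8 ± 0.855. Its range then overlapped that of Socs4, at 27.7 ± 3.32, which was higher in 3 of 4 libraries. Cish moved to 224 ± 14.4 and stayed first, and the ratio of Cish to Socs2 became 8.80 ± 1.39.

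The counted Socs1 exons covered 1220 bases and lacked 1568 bases at the 3′ end that a later annotation assigns to the gene. The miR-155 site shown above lies within the counted part. Using the principal transcript's length moved the median detected protein-coding gene by -0.18 on the log2 scale. Socs1, Socs3, Socs4, Socs5 and Socs7 moved by between -0.34 and -0.52, Socs6 by -0.07, Cish by 0.65 and Socs2 by 1.58. Under the cap Socs1, Socs4 and Socs5 kept their counted length, so their moves came only from scaling to the fixed sum.

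**Figure D2:**
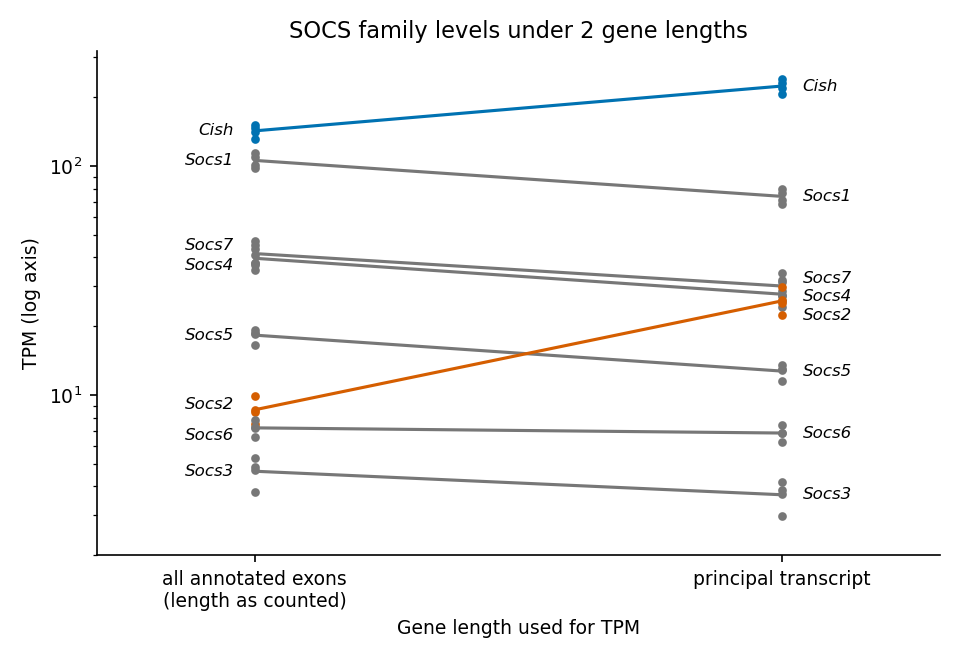
TPM of each SOCS gene on a log axis with the counted exon length (left) and the principal transcript's length (right), with 1 point per library and lines joining the means of 4. Socs2 (orange) rises from 8.65 to 25.8 and crosses Socs5, while Cish (blue) stays highest.

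From the lowest to the highest library, members ranged from 1.15-fold for Cish to 1.41-fold for Socs3. The edgeR fit asks whether a gene varied between libraries beyond the spread typical of genes of like abundance in the same 4 libraries. In the fit over all genes, 94 of 13681 genes tested (0.687%) differed between libraries at an adjusted p under 0.05, and none of the 8 members did. At an unadjusted p under 0.05 the counts were 959 genes (7.01%) and 0 members. The smallest member p was 0.112 for Socs2 (adjusted p = 0.911), and the adjusted p of the other 7 rounded to 1.00. At these shares, 0 of 8 is near the background and is not a result about the family. With DESeq2 dispersions 105 genes were called, with a common dispersion 617, and without replicates 1, 2 and 4 in turn 46, 38 and 46. None of these fits called a member.

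Coefficients of variation of TPM ran from 6.02% for Cish to 14.0% for Socs3, with 6.50% for Socs5, 6.93% for Socs6, 7.01% for Socs1, 11.0% for Socs7, 11.6% for Socs4 and 11.7% for Socs2. Counting alone gives 0.786% for Cish and between 1.37% and 6.54% for the other members.

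Part of that spread moved with gene length in each library. Detected protein-coding genes over 5 kb (4207 genes) had median log2 ratios to their own mean TPM of 0.05, -0.12, 0.11 and -0.05 in replicates 1 to 4. Those under 2 kb (1603 genes) had -0.01, 0.06, -0.09 and 0.03. Socs4 and Socs7, counted over 6873 and 7265 bases, deviated in the same directions as the long genes. On the log2(TPM + 1) scale, Socs4 deviated from its mean by 0.05, -0.16, 0.20 and -0.09. Socs7 deviated by 0.07, -0.12, 0.18 and -0.13. Relative to detected genes of like length, the SD of Socs4 went from 0.16 to 0.08 and that of Socs7 from 0.15 to 0.08. For Socs1, counted over 1220 bases, it went from 0.10 to 0.06. Cish and Socs6, also over 5 kb, followed the long genes less closely. Cish, counted over 6419 bases, deviated by -0.02, -0.11, 0.09 and 0.04. Its sign was opposite to that of genes of like length in replicates 1 and 4, and its SD went from 0.09 to 0.06. Socs6, counted over 8225 bases, stood at 0.01 in replicate 2, where genes of like length stood at -0.11. Its SD went from 0.09 to 0.08.

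Socs2 went the other way. It was highest in replicate 2, by 0.19 above its mean, where genes of like counted length stood at -0.13. Its SD went from 0.15 to 0.21 relative to genes of like counted length and was 0.17 relative to genes of like transcript length. Socs3 kept its spread, 0.17 before and 0.17 after.

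**Figure D3:**
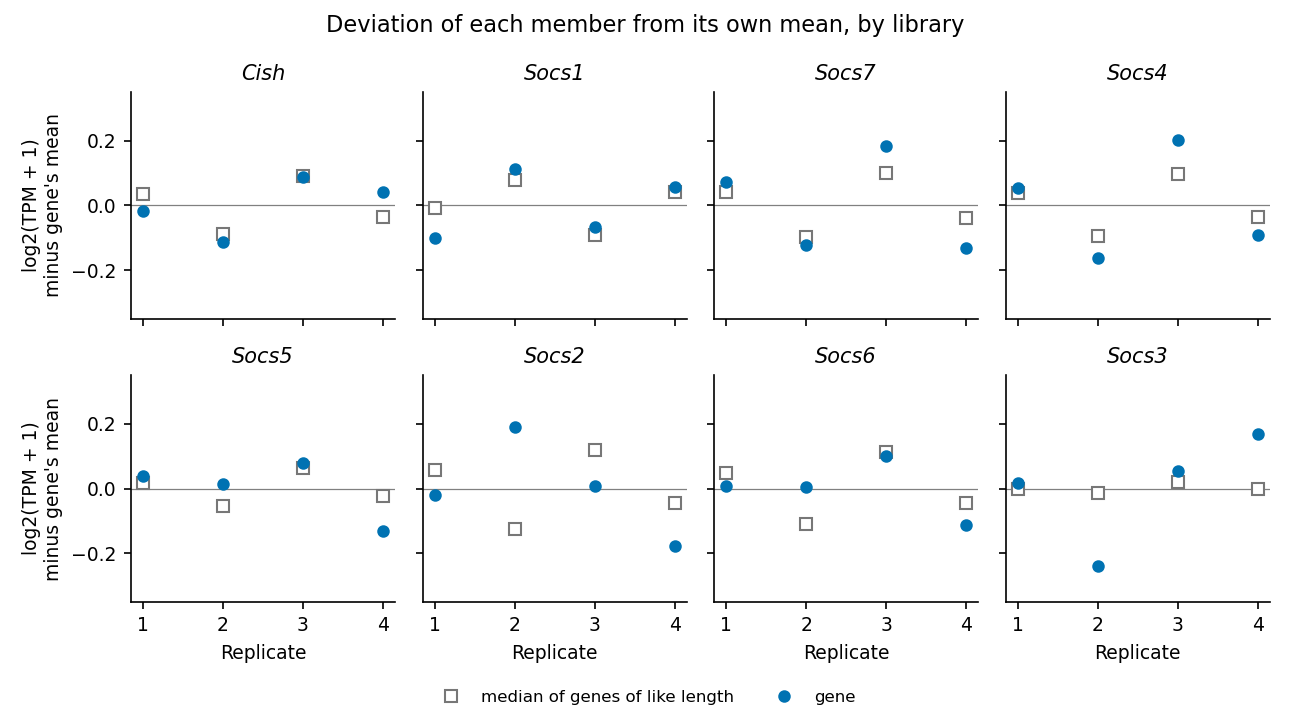
Deviation of log2(TPM + 1) from the gene's own mean over 4 libraries (circles), by replicate, beside the median deviation of detected protein-coding genes of like counted length (squares). Circles follow squares for Socs4 and Socs7, and the Socs2 circle lies on the other side of 0 from its square in replicate 2.

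Mir155hg, the host transcript of miR-155, was looked up because of the Socs1 site, after values had been seen. It stood at 96.2, 60.5, 69.5 and 59.7 TPM, a mean of 71.5 ± 17.1, with replicate 1 above the other 3. Its edgeR adjusted p was 0.0920, and without replicate 1 it was 0.999917, without replicate 3 0.0373. With no count filter it was 0.595, with a mean count of at least 50 0.478 and with a common dispersion 0.190. Socs1 was lowest in replicate 1, at 98.8 TPM, and Socs6, the other member with a seed match, was lowest in replicate 4, at 6.57 TPM. Mature miR-155 was not measured, and 4 libraries are too few for a correlation.

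AU-rich ATTTA motifs were also counted in the 3′ UTRs, as letter matches only, and message lifetimes were not measured. Socs4 held 17 (3.28 per kb, against a median of 1.86 per kb in UTRs of like length). Cish held 3 (2.76 per kb, against 1.59) and Socs3 held 4 (2.71 per kb, against 1.56). Socs1 held 0 in 1993 bases, where UTRs of like length had a median of 1.66 per kb. Socs7 held 5 (0.965 per kb, against 1.86) and Socs5 held 4 (1.54 per kb, against 1.74), both below the median of like length. Socs6 held 10 (2.49 per kb, against 1.77) and Socs2 held 2 (1.72 per kb, against 1.60).

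Beside the 8 members, 83 of 120 other genes of the pathway were detected, against 49.4% of all protein-coding genes. In the edgeR fit 1 of the 88 tested differed between libraries, beside 0.687% of all genes tested. That gene was Asb2, a SOCS-box protein with ankyrin repeats. At an unadjusted p under 0.05 the count was 7 of the 88, beside 7.01% of all genes tested. All 4 JAK kinases were detected. Jak2 was the highest at 353 ± 31.6 TPM, followed by Jak1 at 183 ± 12.3 and Jak3, the kinase of the interleukin 2 receptor gamma chain, at 182 ± 10.9.

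All 7 STAT factors were detected, led by Stat6, the interleukin 4 factor, at 335 ± 19.1 TPM, and by Stat3 at 162 ± 13.6. Stat5a and Stat5b, the STAT5 genes through which interleukin 2 acts on Cish, stood at 140 ± 12.0 and 130 ± 10.1 TPM. Of these 11 genes 0 differed between libraries at an adjusted p under 0.05 (0.687% of all genes) and 0 at an unadjusted p under 0.05 (7.01% of all genes), which is near the background for so few genes.

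Of the receptors, 24 of 32 were detected. The 3 chains of the interleukin 2 receptor were the highest, Il2rg at 558 ± 20.6 TPM, Il2rb at 533 ± 33.1 and Il2ra at 527 ± 24.1. Of 17 cytokine ligands, 3 were detected. These were Il2, the main T cell growth factor, at 1015 ± 71.5 TPM, and the gp130 cytokines Lif at 140 ± 8.79 and Osm at 45.6 ± 1.79.

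All 12 other STAT5 target genes were detected, a list that shares Il2ra, Il2rb, Lif and Osm with the receptor and ligand lists. After Il2rb and Il2ra the highest was the growth regulator Myc, at 491 ± 30.6 TPM. With the counted exon length, the list's median of mean TPM was 225, beside 143 for Cish, a STAT5 target itself. With the principal transcript's length Cish stood at 224, and the list's median was not recomputed.

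Of the ubiquitin ligase genes listed as SOCS-box machinery, 12 of 12 were detected as RNA. Cul5, the cullin that SOCS boxes recruit, stood at 29.4 ± 2.41 TPM. Elob, which encodes elongin B, stood at 843 ± 99.2 TPM, Nedd8, the modifier that activates cullins, at 732 ± 63.6, and Ube2m, a Nedd8-conjugating enzyme, at 265 ± 7.90. Elob and Nedd8 had unadjusted p values of 0.00492 and 0.0444 and adjusted p values of 0.228 and 0.682 in the edgeR fit. They were the 2 of 12 with an unadjusted p under 0.05, beside 7.01% of all genes tested. Both were lowest in replicate 3, where genes under 2 kb also had their lowest median, -0.09. A link to gene length was not tested for Elob and Nedd8.

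Other proteins with a SOCS box were detected in 13 of 27 cases, and 6 had 0 counts in every library. Wsb1 stood at 76.2 ± 10.6 TPM, Spsb3 at 72.2 ± 3.27 and Asb8 at 47.7 ± 2.91, all below Cish and Socs1 with the counted exon length. Asb2 stood at 14.9, 24.8, 17.8 and 21.8 TPM, a 1.67-fold range with replicates 2 and 4 above 1 and 3. Its edgeR adjusted p was 0.0353, and it was 0.477 without replicate 1, 0.517 without replicate 2 and 0.0847 without replicate 4.

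Of 13 other inhibitors of JAK and STAT signals, 12 were detected. The phosphatase Ptpn6 (SHP-1) stood at 605 ± 21.3 TPM, Ptprc (CD45) at 305 ± 29.0 and Ptpn11 (SHP-2) at 183 ± 19.8. With the counted exon length, each was above Cish in mean. The undetected member was Usp18, the interferon-induced brake on the type I interferon receptor, at 0.128, 0.288, 0.643 and 1.51 TPM. Its counts were too low for the filter of the edgeR fit. In the fits that included it, Usp18 had an adjusted p of 0.141 with no count filter and 0.0548 without replicate 1.

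**Figure D4:**
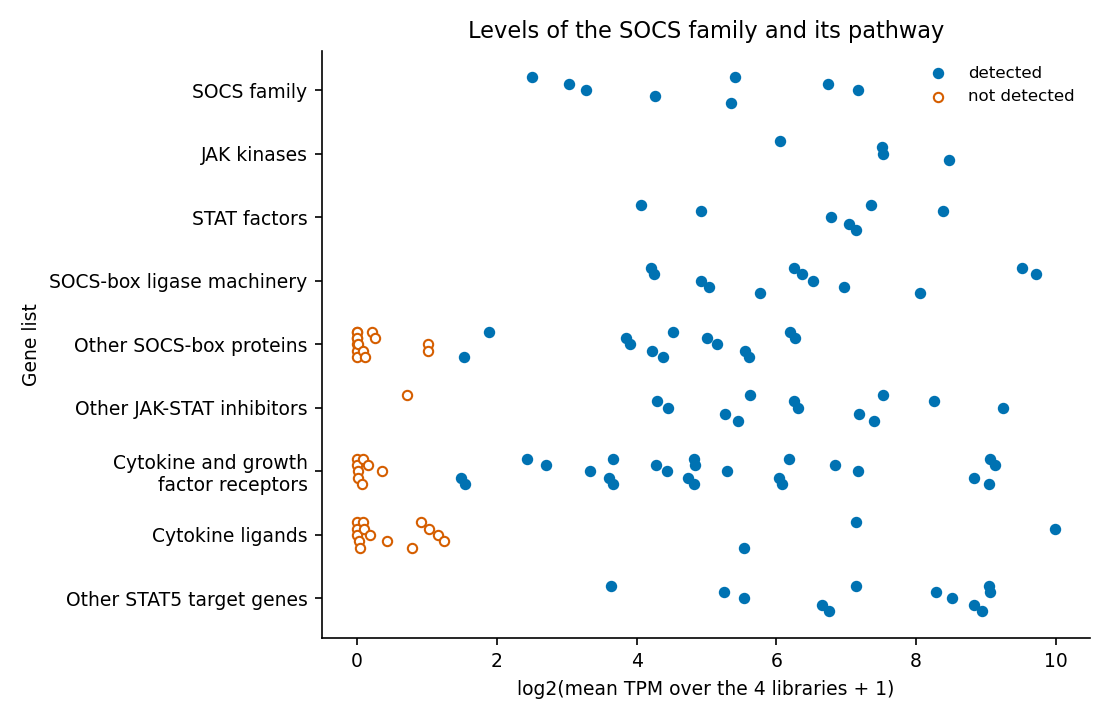
log2(mean TPM + 1) over 4 libraries for every gene of the SOCS family and 8 other lists, 1 point per gene, filled blue where detected and open orange where not. All 8 SOCS genes, 4 JAKs and 7 STATs are detected, whereas 14 of 17 ligands are not.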

How the data were processed

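The deposited tables hold unnormalized counts of fragments by gene, with a table for each of the 4 libraries. Per the file headers, featureCounts 1.4.6-p4 assigned pairs with both ends aligned to GENCODE vM13 exons on the reverse strand, and per the labels the assembly is mm10. The version of the aligner is not given in the sources used here. The labels name total RNA, while the linked library protocol is one for polyA RNA.

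TPM was computed from the counts and the exon length in the deposited tables. Symbols came from GENCODE mouse release 21 (50376 of 50600 genes matched). Differences between genes are on log2(TPM + 1), which understates those of low genes. Genes differing between libraries were tested in edgeR 4.0.16 (R 4.3.3) with TMM, filterByExpr and a trended dispersion in an intercept-only fit. The deviance was set on chi-square, with Benjamini-Hochberg adjustment over all genes. The test was also run on counts simulated with the fit's own trended dispersions. Such counts cannot show how it behaves where genes depart from that trend. With 1 group, edgeR's quasi-likelihood test has no contrast to test. DESeq2 1.42.0 was an alternative. Python 3.11.15, pandas 2.3.3, numpy 2.4.6, scipy 1.17.1 and matplotlib 3.10.9 did the rest.

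Cish overlaps 2 genes on the other strand, Gm17040 (76 to 176 counts) and Gm17041 (0 or 1). UTRs are those of the longest principal transcript in release 21, and like length means 0.8 to 1.25 times. The members and lists were chosen with earlier results of these data known. Named genes are all members and, of each list, the 3 of highest mean TPM and those that differed between libraries. Where a list had at most 4 undetected genes, those are named too. Cul5 is named besides, as the cullin that SOCS boxes recruit, and Stat5b, as the other STAT5 gene. Markers of other cell types are given mostly as sums by list. Counts limit the precision by sampling error only. Totals differed up to 1.90-fold.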

Additional observations from a re-analysis of the deposited data

Results flagged for a closer look

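The difference between Socs1 and Socs3 in log2(TPM + 1) was 4.60 in replicate 2 and 4.13, 4.13 and 4.14 in the other libraries. The gap from replicate 2 to the nearest library was 0.986 of the whole range, above the 95% limit of Dixon's test for 4 values. In replicate 2, Socs1 was at its highest, 115 TPM, and Socs3 at its lowest, 3.77 TPM from 176 counts. Chance marks about 1 group in 20, and 15 quantities were examined. The effect of counting error or gene length on this gap was not tested.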

How the results depend on the processing

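Dividing by the principal transcript's length, capped at the counted length, was chosen after seeing the data. It moved mean TPM to 224 for Cish, 30.0 for Socs7, 25.8 for Socs2 and 3.68 for Socs3. Socs1, Socs4 and Socs5 kept their counted length and moved to 74.0, 27.7 and 12.8 through the fixed sum alone. The log2 differences became 3.07 for Cish minus Socs2, 4.01 for Socs1 minus Socs3 and -1.98 for Socs6 minus Socs7. On log2 CPM, which ignores length, they were 3.48 for Cish minus Socs2, 3.26 for Socs1 minus Socs3 and -1.76 for Socs5 minus Socs4. In CPM Socs7 ranked 2, Socs4 3, Socs1 4, Socs2 5 and Socs5 6. A pseudocount of 0.1 gave 4.49 for Socs1 minus Socs3 and -2.51 for Socs6 minus Socs7. None of the 4 structural pairs changed direction under these settings, but Socs2 passed Socs5 with the transcript length, and Socs7 and Socs4 passed Socs1 in CPM. Socs2 stood above Socs5 in mean CPM, at 24.0 against 23.4, through replicate 2 only. There, log2 CPM was 4.85 for Socs2 and 4.62 for Socs5, and in every other library Socs5 was higher.

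All 8 members were detected at a TPM of 0.5 or a count of 10, and 7 at a TPM of 5. At a TPM of 0.5, 6 ligands were detected in place of 3. Genes differing between libraries numbered 617 with a common dispersion, and 38 to 87 when 1 replicate was left out, which also leaves fewer samples. No member was called in any of the 10 fits. The member of smallest p in them was Socs2 without replicate 1, at an unadjusted p of 0.0498 and an adjusted p of 0.839. Asb2 had an adjusted p of 0.285 with no count filter and 0.224 with a mean count of at least 50. A further 97 recomputed levels, differences and counts stayed within 1 SD between replicates, or for counts within 1.5 times. Many of these could not have failed. Leaving out 1 replicate always moves a mean level or difference by less than 1 SD, and it cannot lower the number of members detected. Such recomputations therefore say nothing about stability. No paired analysis was possible because the labels give 1 group.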
